A study of Mus musculus with 16 samples.

Results

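Interleukins are secreted proteins through which immune cells, epithelial cells and stromal cells signal to each other, and each acts through a receptor built of 1 or more chains on the surface of the responding cell. Many of these chains are shared. The common gamma chain Il2rg, for example, is part of the receptors for IL-2, IL-4, IL-7, IL-9, IL-15 and IL-21, and Il10rb serves both IL-10 and IL-22. In the colon, IL-18, IL-22 and the IL-17 family are known for their action on the epithelial barrier, and IL-10 is known for restraining inflammation.

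The members described here were all genes, other than control spots, whose name in the array files begins with Il followed by a digit. There were 82 such genes, measured by 148 probes, among 36711 genes tested. They comprised 40 receptor chains, 38 cytokine genes, and the antagonist Il1rn, the decoy Il18bp, the enzyme gene Il4i1 and the antisense transcript Il1bos.

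RNA of the colon was hybridised to 1-colour Agilent arrays from 16 outbred RjOrl:SWISS pups, taken at weaning at 3 weeks of age and kept free of specific pathogens. The 8 CSD pups were taken by hysterectomy shortly before term, as a model of C-section delivery, and were nursed by foster mothers whose own delivery was vaginal. They were 4 females and 4 males, and each of mothers 3 and 4 had contributed 4. The 8 VD pups were delivered vaginally, and their litters were exchanged between mothers. They were 2 females and 6 males. Mother 5 had contributed 5 pups, among them both females, and mother 6 had contributed 3, all male. No mother had pups of both delivery modes, so that a delivery effect and a difference between litters rest on 2 litters against 2, and delivery mode cannot be told apart from the surgery. The arrays lay on 2 slides, each with 4 pups of either mode. Between 58.7% and 64.9% of the spots of an array were well above background by the scanner software, no spot was saturated, and arrays within a group correlated at 0.990 to 0.997 across genes. The colon markers Car1, Aqp8 and Slc26a3 were well above background on every array. All values below are log2 intensities after background correction and quantile normalization. They compare pups for 1 gene and not 1 gene with another.

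Of the 82 interleukin genes, 46 were well above background on all 16 arrays with at least 1 probe, which is 56.1% beside 55.9% of all genes. Receptors and cytokines differed in this. The 40 receptor chains include the secreted Il22ra2. Of them, 33 were above background on every array, and 4 on none. Of the 38 cytokine genes, 10 were above background on every array, 9 on some and 19 on none. The 24 genes not well above background on any array were 29.3% of the members, beside 25.5% of all genes. They were the T cell cytokines Il2, Il4, Il5, Il9, Il13, Il17a, Il17f and Il31, the myeloid and regulatory cytokines Il1a, Il6, Il10, Il19, Il20 and Il23a, the epithelial cytokine Il17c, the IL-1 family members Il1f5, Il1f6, Il1f9 and Il1f10, the chains Il18rap, Il20ra, Il23r and Il1rapl2, and the transcript Il1bos. The signal of these genes sets only an upper bound, and no fold change is given for them.

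A gene value is the mean of its probes, and 48 of the 82 genes had more than 1 probe. In 10 genes above background on every array the mean took in at least 1 probe above background on none. They were Il13ra2, Il18r1, Il1b, Il1rap, Il1rl1, Il1rl2, Il5ra, Il6st, Il7 and Il7r. The sequences are shown for 3 genes that the results turn on and whose probes did not behave alike. Each probe is 60 bases long, its first 30 bases are printed 5′ to 3′, and its place is given in mm9, the build of the scanner files. Exons and untranslated parts were not annotated here, since no annotation of that build was used. The Il21r probes lay on the plus strand at chr7:132776644-132776703 (probe 1) and chr7:132774961-132775020 (probe 2), the Il22ra1 probes on the plus strand at chr4:135308423-135308482 (probe 1) and chr4:135307757-135307816 (probe 2), and the Il1b probes on the minus strand at chr2:129190347-129190406 (probe 1), chr2:129190880-129190939 (probe 2) and chr2:129195465-129195524 (probe 3).
Il21r probe 1: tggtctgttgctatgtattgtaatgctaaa
Il21r probe 2: gtgctgttgctgctgatcttgtgtgacaag
Il22ra1 probe 1: aagaagaagcctttactctctgctgtcagg
Il22ra1 probe 2: ccttaatccatcaggaggtgaggggtgttg
Il1b probe 1: aggttcctataatatggatgagaattttta
Il1b probe 2: ggaaaagcggtttgtcttcaacaagataga
Il1b probe 3: aggagctatcacttgaccacatctgttttc

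The main question was whether interleukin genes differed between CSD and VD pups. Il21r, the receptor chain specific for the cytokine IL-21, was called lower in CSD pups, and no interleukin gene was called higher. The call of Il21r was lost under 15 of 21 alternatives in the processing, the model or the pups kept. The receptor genes Il2rg, Il10ra, Il12rb1 and Il18r1 had lower means in CSD pups without passing the threshold, as did the antagonists Il1rn and Il22ra2. Il22ra1, the epithelial receptor chain of IL-22, had the largest log2 fold change above 0 among members above background on every array, again without passing it. At a Benjamini-Hochberg adjusted p under 0.05 by limma over all genes, 1 of 82 members was called, which is 1.22% beside 1.25% of all genes (0.706% higher and 0.548% lower in CSD pups). At an unadjusted p under 0.05, 15 members were lower (18.3%, beside 7.09% of all genes) and 7 were higher (8.54%, beside 7.37%). The lower ones numbered 5 on slide 1 alone and 8 without the litter of mother 5, and the higher ones 4 without CSD pup 8. These fits held fewer pups and the share of all genes was not counted in them. Whether the excess of lower members changed there therefore cannot be told. The fitted log2 fold changes of CSD over VD were below 0 in 49 members and above 0 in 33, with a median of -0.031 beside 0.0029 for all genes tested. The median was -0.014 without CSD pup 8 and -0.016 without VD pup 4. With the scanner's processed signal scaled to the 75th percentile of each array, which kept 80 members, 39 were below 0 and 41 above, and their median was 0.016 beside 0.044 for all genes. Among the 46 members above background on every array, 31 were below 0 and 15 above, with a median of -0.05 beside 0.00 for the 20601 genes of that kind. At an unadjusted p under 0.05 by limma, 12 of these members were lower and 3 higher, beside 2123 and 2262 of those genes. In no member did all pups of a delivery mode lie beyond all pups of the other, which held for 0.293% of all genes upward and 0.2% downward.

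**Figure D1:**
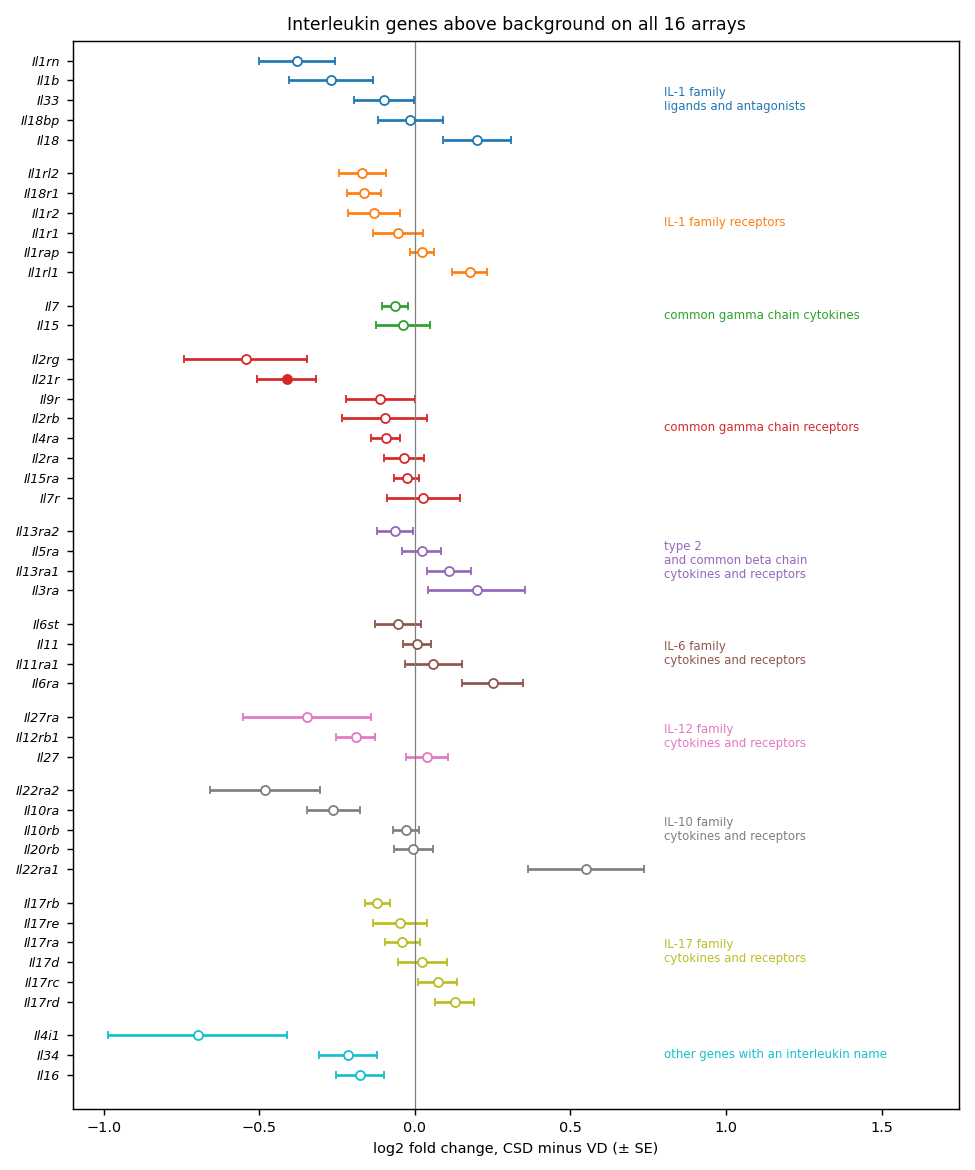
Log2 fold change of CSD over VD pups with its standard error for the 46 interleukin genes well above background on all 16 arrays, grouped by family. A filled point marks an adjusted p under 0.05, which only Il21r at -0.41 reached. Il2rg at -0.54, Il4i1 at -0.70 and Il22ra1 at 0.55 lay farther from 0 with wider errors.

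The receptors of the common gamma chain family hold the called gene. In CSD pups Il21r ranged from 8.56 to 9.14 with a median of 8.81, and in VD pups from 8.91 to 9.53 with a median of 9.26. The groups overlapped, with 6 CSD pups below every VD pup and 6 VD pups above every CSD pup. CSD pup 1 was the highest of its group and VD pup 7 the lowest of its group. The mean was 8.82 ± 0.19 (SD, n = 8) in CSD pups and 9.25 ± 0.19 in VD pups, and the fitted log2 fold change was -0.41 ± 0.09 (SE), a 1.33-fold lower signal, with an adjusted p of 0.0452 by limma. An exact two-sided permutation test over pups, which takes no account of litter or sex, gave p = 0.00109. The means of CSD litters were 8.80 and 8.84 and those of VD litters 9.26 and 9.23, and the difference was -0.25 on slide 1 and -0.60 on slide 2.

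The 2 probes of Il21r differed. At probe 1 the CSD pups ranged from 7.75 to 8.95 with a median of 8.16, and the VD pups from 8.34 to 9.48 with a median of 9.04. The difference of the means was -0.76, with p = 0.00373 by the exact permutation test. At probe 2 the CSD pups ranged from 9.19 to 9.73 and the VD pups from 9.32 to 9.77, a difference of -0.10 with p = 0.257 by the same exact test. The lower value of the gene in CSD pups was thus seen at probe 1. With probe 2 alone, the brighter over all arrays, the gene was no longer called, at -0.07 on the log2 scale (adjusted p of 0.761 by limma). The call was also lost without any single pup other than CSD pup 1 or VD pup 7, where the adjusted p lay between 0.0508 and 0.125. It was lost too with slide as a fixed effect (adjusted p of 0.0573 by limma), with a robust variance trend (0.0518), with a normexp offset of 16 (0.0601), in the deposited matrix (0.076) and with litter means (0.23), while the log2 fold change lay between -0.54 and -0.07 under all alternatives.

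Of the other 7 members of these receptors, all were above background on every array, 6 had a log2 fold change below 0 and none was called. Il2rg, the shared chain, ranged from 9.57 to 10.73 in CSD pups with a median of 10.18, and from 10.25 to 11.44 in VD pups with a median of 10.65. CSD pup 8 and VD pup 6 were the extremes, and the groups overlapped. The fitted log2 fold change was -0.54 ± 0.20 (SE), with an adjusted p of 0.197 by limma. Il4ra, the chain for IL-4 and IL-13, stood at 8.12 ± 0.08 in CSD pups and 8.22 ± 0.09 in VD pups (SD, n = 8). The chains Il2ra, Il2rb, Il7r, Il9r and Il15ra had log2 fold changes between -0.11 and 0.03. The cytokines of this family were little seen: Il7 and Il15, which maintain lymphocytes, were above background on every array, with log2 fold changes of -0.06 and -0.04, and Il21, the ligand of Il21r, on 5 of 16 arrays. Il7 was above background at 1 of its 3 probes, which ranged from 7.56 to 7.88 in CSD pups and from 7.66 to 8.18 in VD pups. That probe differed by -0.23 (p = 0.0172, exact permutation test), and with it alone the gene was not called, at an adjusted p of 0.233 by limma.

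**Figure D2:**
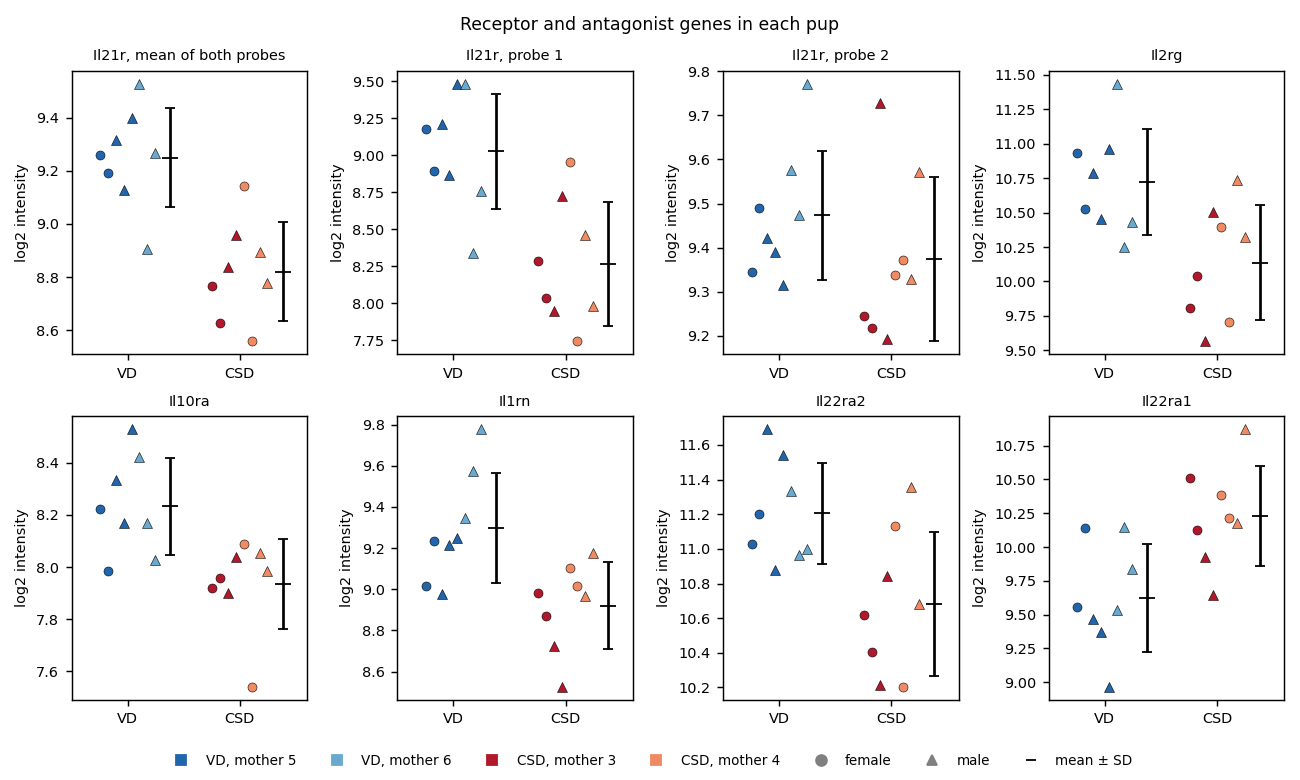
Log2 intensity of Il21r (gene mean and each probe), Il2rg, Il10ra, Il1rn, Il22ra2 and Il22ra1 in each of 8 VD and 8 CSD pups, coloured by mother, with circles for females and triangles for males. The bar beside each group is its mean and SD. The group means differ by 0.76 at probe 1 of Il21r and by 0.10 at probe 2, with overlapping ranges at both. CSD pup 2 lies apart at 7.54 in Il10ra.

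In the IL-10 family, the receptor genes differed in direction and none was called. Il10ra, the chain that binds IL-10 and is carried mainly by leukocytes, ranged from 7.54 to 8.09 in CSD pups with a median of 7.97, and from 7.99 to 8.53 in VD pups with a median of 8.20. All but 2 of the VD pups lay above every CSD pup. The fitted difference on the log2 scale was -0.26 ± 0.09 (SE), with an adjusted p of 0.149 by limma and p = 0.00218 by the exact permutation test. Both of its probes were lower in CSD pups, by 0.20 and 0.40. Il10rb, the chain shared with the IL-22 receptor, stood at 12.83 ± 0.07 in CSD pups and 12.84 ± 0.09 in VD pups (SD, n = 8).

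Il22ra1, which with Il10rb makes the IL-22 receptor of epithelial cells, ranged from 9.65 to 10.87 in CSD pups with a median of 10.20, and from 8.96 to 10.14 in VD pups with a median of 9.54. The groups overlapped, with 5 CSD pups above every VD pup. On the log2 scale the fitted difference was 0.55 ± 0.19 (SE), with an adjusted p of 0.163 by limma, and the difference was 0.64 on slide 1 and 0.57 on slide 2. Under the alternatives other than leaving out single pups, the fitted difference lay between 0.32 and 0.91. Probe 1 differed by 1.05, from 12.39 to 13.93 in CSD pups and from 10.97 to 13.26 in VD pups (p = 0.00839, exact permutation test). Probe 2 differed by 0.16, with p = 0.309 by the same exact test. Il22ra2, the secreted protein that binds and blocks IL-22, went the other way, from 10.20 to 11.36 in CSD pups and from 10.88 to 11.69 in VD pups. Its log2 fold change was -0.48 ± 0.18 (SE), with an adjusted p of 0.202 by limma, and 6 CSD pups lay below every VD pup. Il22 itself was well above background on 9 of 16 arrays, 5 of CSD and 4 of VD pups. Of the 19 listed epithelial targets of IL-22, IL-17 and IL-13, none was called, 9 had a log2 fold change above 0 and 10 below, with a median of -0.02. The antimicrobial lectin gene Reg3g, a target of IL-22, stood at 6.69 ± 0.47 in CSD and 6.87 ± 0.56 in VD pups (SD, n = 8). The 2 largest log2 fold changes of the list were those of Pla2g2a and Mptx1, both above 0. The antimicrobial phospholipase gene Pla2g2a stood at 8.70 ± 2.07 in CSD and 6.51 ± 0.79 in VD pups, above background in 8 CSD pups and 1 VD pup, with an adjusted p of 0.205 by limma. Mptx1, a pentraxin gene, stood at 14.59 ± 1.15 and 13.08 ± 1.45, with an adjusted p of 0.361. The others lay between -0.23, in the chemokine gene Cxcl1, and 0.23, in the acute phase gene Saa1.

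In the IL-1 family, 5 of 11 ligand and antagonist genes were above background on every array and none was called. Il1rn, which encodes the antagonist of the IL-1 receptor, ranged from 8.53 to 9.18 in CSD pups with a median of 8.97, and from 8.98 to 9.78 in VD pups with a median of 9.24. The groups overlapped, with 6 VD pups above every CSD pup. Its log2 fold change was -0.38 ± 0.12 (SE), with an adjusted p of 0.142 by limma and p = 0.00513 by the exact permutation test. It lay between -0.72, when mother 5's pups were left out, and -0.19, when mother 3's were. Both of its probes were lower in CSD pups, by 0.42 and 0.33. Il1b ranged from 6.41 to 6.81 in CSD pups and from 6.51 to 7.51 in VD pups. The fitted difference was -0.27 ± 0.14 (SE) on the log2 scale, with an adjusted p of 0.385 by limma, and it was 0.037 without the litter of mother 5. Probe 1 of Il1b, the only 1 of its 3 above background on every array, differed by -0.59, while probe 3 was above background on none. Il18, which epithelial cells make constitutively, had a log2 fold change of 0.20 ± 0.11 (SE) with an adjusted p of 0.43 by limma. Leaving out the pups of mother 6 gave 0.042, and leaving out those of mother 5 gave 0.53, where the gene was called. Each of these fits held only 1 VD litter, so that delivery mode and that litter cannot be told apart there. The alarmin Il33 and the decoy Il18bp had log2 fold changes of -0.10 and -0.01.

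Of 9 IL-1 family receptor genes, 6 were above background on every array. Il18r1, the ligand-binding chain for IL-18, ranged from 6.40 to 6.70 in CSD pups and from 6.59 to 6.91 in VD pups, a fitted change of -0.16 ± 0.05 (SE, log2; adjusted p of 0.151 by limma). Of its 2 probes 1 was on no array above background, and the other differed by -0.35 (p = 0.00218, exact permutation test), from 6.93 to 7.48 in CSD pups and from 7.24 to 7.77 in VD pups. With the latter alone the gene was not called, at -0.32 with an adjusted p of 0.0844 by limma. Its partner chain Il18rap was on no array above background. Il1rl1, the receptor for IL-33, had a higher mean in CSD pups, 7.51 ± 0.20 against 7.40 ± 0.13 (SD, n = 8), and its range of 7.19 to 7.79 enclosed the VD range of 7.22 to 7.55. Adjusted for sex its log2 fold change was 0.18 ± 0.06 (SE), with an adjusted p of 0.139 by limma, whereas the permutation test of the plain means gave an exact p of 0.19. Il1r1, the signalling receptor of IL-1, and the shared chain Il1rap had log2 fold changes of -0.05 and 0.02. Of 14 adaptors and kinases of the IL-1 and IL-17 receptors none was called, with 10 below 0 and a median of -0.02, and of 13 genes for caspase-1 and the processing of IL-1 none was called, with 9 above 0 and a median of 0.00. In the latter list the sensor gene Nlrp6 stood 0.30 higher in CSD pups on the log2 scale (adjusted p of 0.068 by limma), and Casp1 stood at 14.11 in both groups.

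Of the IL-12, IL-6 and IL-3 to IL-13 families, no member was called. Il12rb1, the chain shared by the IL-12 and IL-23 receptors, ranged from 6.98 to 7.40 in CSD pups and from 7.30 to 7.61 in VD pups, where 6 CSD pups lay below every VD pup. Its log2 fold change was -0.19 ± 0.06 (SE), with an adjusted p of 0.149 by limma. The IL-27 receptor gene Il27ra had a log2 fold change of -0.35 ± 0.21 (SE), with VD pup 6 at 9.70 and the other VD pups at or below 8.73. It was -0.22 without VD pup 6 and also -0.22 without CSD pup 8. The ligand gene Il27 stood at 8.59 ± 0.14 in CSD and 8.55 ± 0.12 in VD pups (SD, n = 8). Il6ra, the chain that binds IL-6, ranged from 9.16 to 9.87 in CSD pups and from 9.11 to 9.47 in VD pups, with 5 CSD pups above every VD pup, a fitted log2 change of 0.25 ± 0.10 (SE) and, by limma, an adjusted p of 0.242. Its signalling partner Il6st had a log2 fold change of -0.05, and -0.0059 without CSD pup 8. Il3ra and Il13ra1, receptor chains for IL-3 and for IL-13, had log2 fold changes of 0.20 ± 0.16 and 0.11 ± 0.07 (SE). Il3ra stood at 0.090 without VD pup 5 and Il13ra1 at 0.047 without CSD pup 7. Without the litter of mother 5 Il3ra turned to -0.093.

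Of the interleukins whose proteins the study measured, Il1a, Il6, Il10, Il17a and Il23a were on no array well above background. Il12a was above it in 3 CSD and 5 VD pups, and Il12b in 2 CSD pups and 1 VD pup. Only Il1b and Il27 of these 9 genes were measured on every array, and neither was called.

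In the IL-17 family, the receptor gene Il17rb, whose product binds IL-25 and IL-17B, ranged from 6.72 to 6.92 in CSD pups and from 6.88 to 7.09 in VD pups. Its log2 fold change was -0.12 ± 0.04 (SE), with an adjusted p of 0.152 by limma. The chains Il17ra, Il17rc and Il17re, which make up the receptors for IL-17A and IL-17C, had log2 fold changes of -0.04, 0.07 and -0.05, and Il17rd had 0.13 ± 0.06 (SE) with an adjusted p of 0.384, and 0.060 without CSD pup 8. The cytokine Il17d stood at 10.41 ± 0.10 in CSD and 10.37 ± 0.19 in VD pups (SD, n = 8). Il25, which tuft cells make, was above background on 3 arrays.

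Il17b lay farthest from 0 in the fit of all 82 members and was singled out after its values were seen. It was measured by 1 probe, well above background in 7 of 8 VD pups and 2 of 8 CSD pups. Its values fell at 2 levels. VD pups 4, 5, 7, 8, 9, 10 and 11 lay between 8.81 and 9.43, and CSD pup 1 at 9.45. VD pup 6 at 6.07 lay with the other CSD pups, of which 6 were between 5.93 and 6.37 and CSD pup 9 was at 7.04. The log2 fold change was -2.23 ± 0.54 (SE), with an adjusted p of 0.0581 by limma and p = 0.00979 by the exact permutation test, so that the gene was not called. Its size is not a measured ratio, since the probe was not well above background in 6 CSD pups, where the signal gives only an upper bound. Without VD pup 6 it was called at -2.55 (adjusted p of 0.0144 by limma), and without CSD pup 1 at -2.49 (adjusted p of 0.0181), while without each other pup it was not called, with an adjusted p of up to 0.136. Under the other alternatives the log2 fold change lay between -4.04, with the processed signal, and -1.74, without the litter of mother 5, and the adjusted p between 0.00596 and 0.512. The 8 protein-coding genes next to it in RefSeq order, among them Csnk1a1 and Pcyox1l, had log2 fold changes between -0.17 and 0.34 and none was called. Of these Arhgef37 was on no array well above background.

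**Figure D3:**
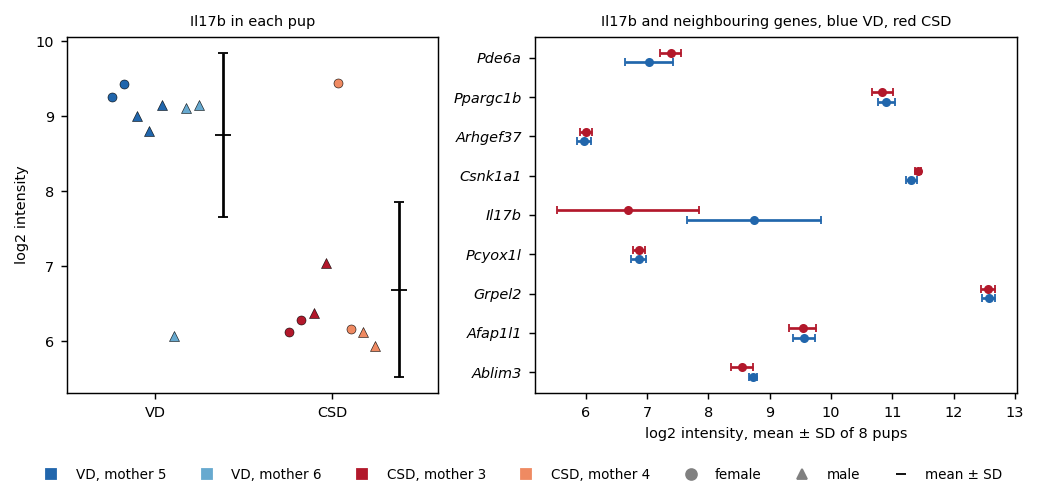
Left, log2 intensity of Il17b in each pup, coloured by mother, with the mean and SD of each group beside it. Right, mean and SD over 8 pups of Il17b and its 8 neighbouring genes. Il17b lies at 2 levels, with CSD pup 1 at 9.45 and VD pup 6 at 6.07 on the side of the other group, while the means of its neighbours lie closer together, farthest apart in Pde6a at 7.39 in CSD and 7.03 in VD pups.

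Of the 3 remaining genes with an interleukin name, all had lower means in CSD pups and none was called. Il4i1, an amino acid oxidase of B cells and myeloid cells, ranged from 9.33 to 11.20 in CSD pups with a median of 10.08, and from 10.21 to 11.80 in VD pups with a median of 10.89. It had the largest spread within groups of the members above background on every array. Its log2 fold change was -0.70 ± 0.29 (SE), with an adjusted p of 0.261 by limma. Il16, a lymphocyte chemoattractant, had -0.18 ± 0.08 (SE) with an adjusted p of 0.301. The difference of CSD and VD means at its 3 probes was -0.49, -0.19 and 0.05. Under the alternatives other than leaving out single pups, Il16 lay between -0.43 and -0.099. Il34, which signals through the macrophage receptor Csf1r, had -0.21 ± 0.09 (SE) with an adjusted p of 0.305.

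Some pups at the extremes of several interleukin genes also had low or high levels of lymphocyte markers. Of 8 B cell markers, all had a log2 fold change below 0, with a median of -0.41, and of 11 T cell markers 10 did, with a median of -0.35, beside 0.00 for all genes. None of the 19 was called. The mean level of the B cell markers was 7.76 ± 0.32 in CSD and 8.24 ± 0.32 in VD pups (SD, n = 8), from 7.34 to 8.23 and from 7.82 to 8.61. No marker of the list was at background on all arrays. The T cell markers averaged 8.32 ± 0.27 in CSD and 8.74 ± 0.37 in VD pups. CSD pup 8, the lowest for B cell markers at 7.34, was also the lowest for Il2rg at 9.57, Il4i1 at 9.33 and Il16 at 6.93. VD pup 6, at 8.59 for B cell and 9.56 for T cell markers, was the highest for Il2rg at 11.44, Il4i1 at 11.80, Il27ra at 9.70 and Il16 at 7.58. VD pups 7 and 8 were the lowest VD pups for B cell markers, both at 7.82. VD pup 7 was the lowest VD pup for Il21r, Il2rg and Il4i1. For T cell markers VD pups 5 and 10, at 8.41 and 8.44, were lower than VD pup 7 at 8.51. In RNA of whole colon, fewer cells of a type and less RNA per cell cannot be told apart, and the part of these cells in the values of the receptor genes was not tested.

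**Figure D4:**
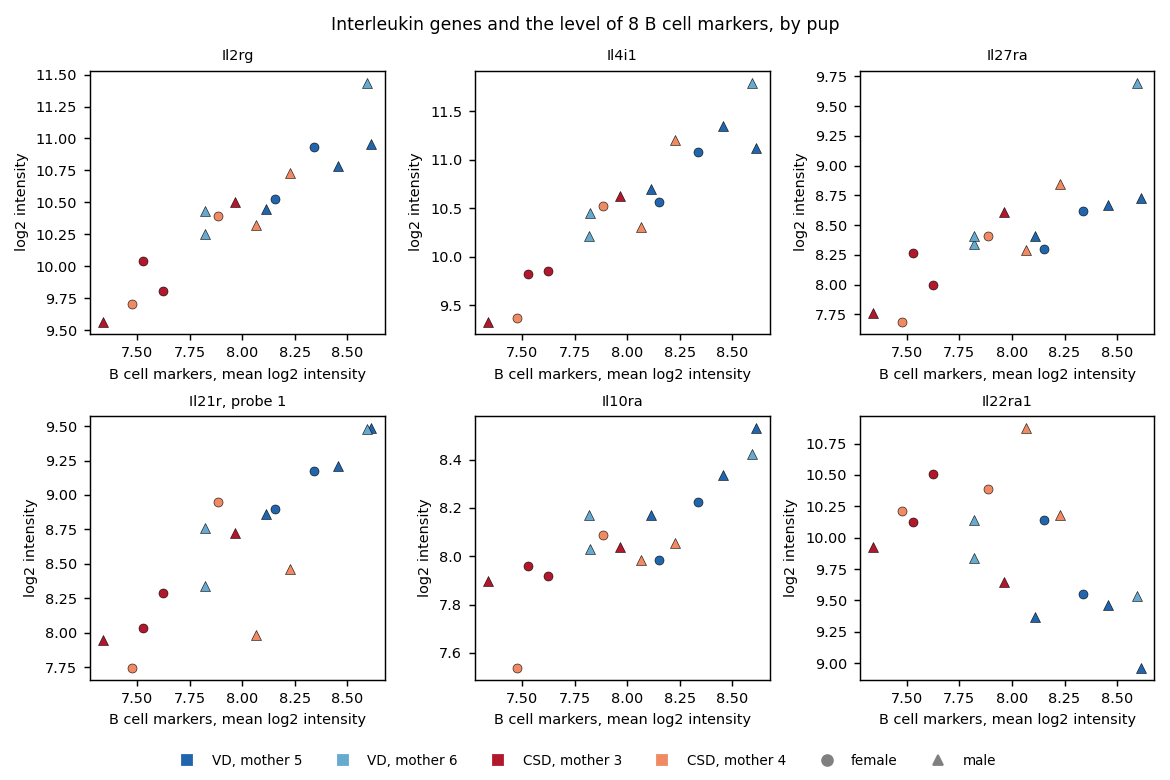
Log2 intensity of Il2rg, Il4i1, Il27ra, probe 1 of Il21r, Il10ra and Il22ra1 against the mean log2 intensity of 8 B cell markers in each of 16 pups, coloured by mother. Pups with low marker levels, such as CSD pup 8 at 7.34, have low values of the first 5. In Il22ra1, VD pup 11, at 8.61 for the markers, is the lowest at 8.96. CSD pup 7, at 8.07 for the markers, is the highest at 10.87, above CSD pup 8 at 9.93.

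Markers of other cells also differed in direction. Of 12 colon epithelium markers 10 had a log2 fold change above 0 with a median of 0.17, and Slc26a3 stood at 11.41 ± 0.19 in CSD and 10.97 ± 0.32 in VD pups (SD, n = 8). Of 10 mast cell markers 9 were above 0 with a median of 0.13, of 11 macrophage markers 8 were below 0 with a median of -0.20, and of 6 endothelial markers all were below 0 with a median of -0.13. The medians of the lists for innate lymphoid cells, neutrophils, eosinophils, tuft cells, and fibroblasts and smooth muscle were -0.02, -0.03, -0.02, -0.04 and -0.08. None of the markers in these lists was called, and their part in the values of Il22ra1, Il1rl1 or Il10ra was not tested.

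Downstream of the receptors, none of 11 JAK and STAT genes was called, with 7 below 0 and a median of -0.01. Of 13 inhibitors of this signalling none was called either, with 7 above 0 and a median of 0.01. In that list Socs5 had a log2 fold change of 0.41 and Cish, which STAT5 induces, of -0.36, with adjusted p values of 0.062 and 0.081 by limma. Of 22 receptors and cytokines that share chains or families with the interleukins none was called, with 15 below 0 and a median of -0.05. The largest difference there was in Clcf1, a cytokine of the IL-6 family, at 8.09 ± 0.55 in CSD and 7.42 ± 0.30 in VD pups (SD, n = 8).

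No interleukin gene was called between 10 males and 6 females by limma, beside 0.0599% of all genes, and 7 members (8.54%, beside 6.45% of all genes) had an unadjusted p under 0.05. The smallest p belonged to Il1rl1, which in males was higher by 0.25 ± 0.06 (SE) on the log2 scale, at an adjusted p of 0.305. Male CSD pups averaged 7.66 ± 0.12 (SD, n = 4) and female CSD pups 7.36 ± 0.13, and the males of both modes lay between 7.30 and 7.79. Il18bp and Il11 were also higher in males, by 0.35 ± 0.10 and 0.16 ± 0.05 (SE), with adjusted p values of 0.552 and 0.527. No member showed a delivery effect that differed between the sexes at an adjusted p under 0.05 by limma, beside 0.00272% of all genes, and 6 (7.32%, beside 4.72%) had an unadjusted p under 0.05. Among these Il27 averaged 8.68 in female CSD pups against 8.39 in the 2 female VD pups, which were of 1 litter, and 8.51 in male CSD against 8.61 in male VD pups.

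Litters of the same delivery mode were also compared. Between the VD litters, Il18 fell in the pups of mother 6, the only member called of 82, which is 1.22% beside 0.874% of all genes. The 3 pups of mother 6 lay between 13.90 and 14.02, below all 5 pups of mother 5, at 14.17 to 14.70, and below all CSD pups. The log2 fold change was -0.48 ± 0.09 (SE), with an adjusted p of 0.0334 by limma. The call was lost with the processed signal, at -0.46 with an adjusted p of 0.0757 by limma. At an unadjusted p under 0.05 stood 9 members (11%, beside 11.5% of all genes). By the fit Il1b was 0.57 lower in the litter of mother 6, all of whose pups were male, with an adjusted p of 0.0832 by limma. These 3 pups lay between 6.51 and 6.71 with a mean of 6.61. Those of mother 5 lay between 6.72 and 7.51 with a mean of 7.11. Il1rn had a log2 fold change of 0.46 ± 0.11 (SE) and Il17re, the receptor for the epithelial cytokine IL-17C, of 0.36 ± 0.09 (SE), with adjusted p values of 0.0817 and 0.0923. The plain litter means of Il17re were 10.78 for mother 6 and 10.54 for mother 5. Between the CSD litters no member was called by limma, beside 0.0872% of all genes, and 7 (8.54%, beside 7.69%) had an unadjusted p under 0.05. The smallest p belonged to Il9r, the IL-9 receptor, at 6.57 ± 0.14 (SD, n = 4) for mother 3 and 6.92 ± 0.25 for mother 4, with an adjusted p of 0.286. For delivery mode, both CSD litter means lay below both VD litter means in 27 members, or 32.9% beside 20.3% of all genes, and above both in 11, or 13.4% beside 21.7%.

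**Figure D5:**
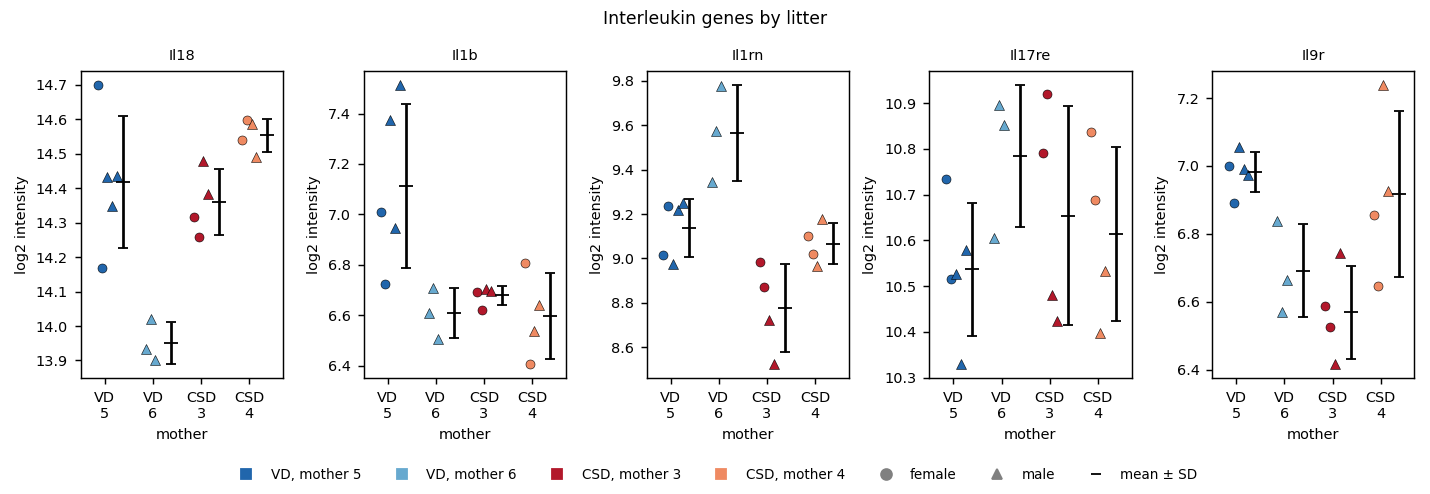
Log2 intensity of Il18, Il1b, Il1rn, Il17re and Il9r in each pup by mother (VD mothers 5 and 6, CSD mothers 3 and 4), with the mean and SD of each litter of 3 to 5 pups. In Il18 the litter of mother 6 lies between 13.90 and 14.02, below every other pup, and in Il1b the litter of mother 5 alone reaches above 6.81.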

How the data were processed

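The intensity values were deposited per array as scanner output, in which the authors' Agilent software gave each spot a mean signal, a background and quality calls, and a matrix of log2 gene values was deposited by the authors beside them, made with limma 3.38 per the submitters' processing notes. Here, with limma 3.58.1 in R 4.3.3 (figures with matplotlib 3.10.9), the mean signal was corrected by normexp with an offset of 50, control and outlier spots were left out, log2 values were quantile normalized between 16 arrays, and 56366 of 56605 probes, those over the 5% quantile of their array on at least 4 arrays, were averaged per gene. The deposited matrix holds 63 of the 82 interleukin genes and served as an alternative. All 82 names matched RefSeq by symbol or accession.

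Delivery mode and sex were fixed effects and the biological mother a random effect (consensus correlation 0.0152). p-values were adjusted over 36711 genes. An interaction model and a model of the 4 litters used the same values. Gene tests were checked on simulated data. Those data held no differences between litters, so that litter effects were not covered by the check. Exact permutation tests covered 12870 assignments of pups, with 0.000155 the smallest p possible. Samples were grouped by title. Pups are separate animals of shared litters. Array number limits the precision.

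Genes named were those called in any comparison, those of the measured proteins, the 2 of smallest p in each family among those above background in a whole group, and the 3 of largest spread, besides Il17b. Further genes are named as examples of their family or list. The members, gene lists and tests were chosen with earlier results of these data known. A list of liver genes was included for tissue identity, where 4 of 5, among them Alb, were above background on every array and the list had a median log2 fold change of -0.09, with 0 called.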

Additional observations from a re-analysis of the deposited data

Results flagged for a closer look

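Values that lay apart from the other pups of their group by Dixon's criterion numbered 5 among 60 groups of 8 pups tested over 30 genes, where chance marks about 1 group in 20. The count cannot be set against that share, since Il17b was chosen after its values were seen and Il27ra partly for its spread within groups. Il17b was high in CSD pup 1, at 9.45 with the next CSD pup at 7.04, and low in VD pup 6, at 6.07 with the next VD pup at 8.81. VD pup 6 was also high in the IL-27 receptor gene Il27ra, at 9.70 with the next VD pup at 8.73, and had the highest T cell marker level of all pups, 9.56. The part of those cells in it was not tested. Il10ra was low in CSD pup 2, at 7.54 with the next CSD pup at 7.90. Il10 was low in CSD pup 7, at 5.87 with the next at 5.97, in a gene not well above background on any array. There the signal gives only an upper bound, so that this value says nothing on the level of Il10.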

How the results depend on the processing

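The log2 fold changes of 23 named genes were recomputed under 21 alternatives and without each of 16 pups. Of 851 values, 797 kept both direction and call. Only Il21r of these genes was called with all pups, so that the others kept the call by staying uncalled. The call of Il21r (log2 fold change -0.41) kept its direction throughout, from -0.54 to -0.07, but its adjusted p passed 0.05 under 15 of 21 alternatives and without 14 of 16 pups (-0.46 to -0.38). The number of interleukin genes called lower in CSD pups was 0 with an offset of 16, with the processed signal (quantile normalized or scaled to the 75th percentile), with probes above background on at least 8 arrays, with the brightest probe, in the deposited matrix, with litter means, in males only, with slide as a fixed effect, on slide 1 or slide 2 alone, with a robust variance trend, and without the litter of mother 3, 4 or 5. It was 2 when the mother, or the sex, was dropped from the fit, 6 when the litter of mother 6 was left out, and 0 to 2 without single pups. The number called higher was 1 on leaving out mother 5 and 2 on leaving out mother 6. Without mother 5, Il18 (0.53) was called. Without mother 6, Il22ra1 (0.70) and Il1rl1 (0.21) were called upward, and Il21r (-0.43), Il1b (-0.46), Il10ra (-0.30), Il17rb (-0.15), Il16 (-0.21) and Il17b (-2.50) downward. Both fits held only 1 VD litter, so that delivery mode and that litter cannot be told apart there. The share of all genes called was not counted under any alternative, so that these counts are not read as a result about the members. Il17b was called without VD pup 6 (-2.55), without CSD pup 1 (-2.49), and in 4 other alternatives. The call of Il18 between the VD litters was lost with the processed signal (log2 fold change -0.46, adjusted p of 0.0757 by limma, 0 genes called).

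Directions turned in Il27, Il15, Il7, Il6st, Il1b and Il3ra, none of which was called with all pups. Il27 was -0.10 in males, -0.0018 on slide 2 and -0.11 without mother 5, and -0.014 to 0.090 without single pups. Il15 was 0.014 on slide 2, 0.094 without mother 4 and 0.015 without mother 6, and -0.071 to 0.012 without single pups. Il7 was 0.029 at the 75th percentile, Il6st was 0.018 on slide 2, and without mother 5 Il1b was 0.037 and Il3ra was -0.093. With the 75th percentile scaling 41 members lay above 0 and 39 below, in place of 33 and 49, while the median of all genes was 0.044 in place of 0.0029.

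Title numbers shared by both modes did not pair the pups, with correlations of their deviations from -0.05 to 0.21. With the number as a replicate block in place of the mother, 3 members were called lower, a count without the share of all genes beside it. The causes of these changes were not tested. Probes near background limit what the 36 members not above it on every array can show.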
